A study of Mus musculus with 4 samples.

Results

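The cells described here are 591 TGFβR-KO T cells from the small intestine of mice, 361 in the cluster that the authors named tumorigenic and 230 in the cluster that they named pretumorigenic. They were taken by these deposited cluster names from the 2975 TGFβR-KO cells of a single-cell RNA-sequencing (scRNA-seq) table of 5080 cells, and no other value was used to choose them. They made up 12.1% and 7.73% of the TGFβR-KO cells, next to 6 other clusters. The names are used as the names of clusters, since nothing in the table measures the effect of a cell on a tumor.

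All cells were CD4+ T cells sorted for YFP from mice of the Il-17a-CRE strain at 7 to 8 months of age, and in this strain YFP stays on in any cell that has expressed *Il17a*, even if it no longer does. TGFβR-KO mice carried floxed alleles of *Tgfbr2*, which are lost only in cells in which the *Il17a*-driven Cre was active, and TGFβR-WT mice carried normal receptors. TGFβR-CA mice carried, behind a floxed stop, a *Tgfbr1* form that is active without ligand. The series has 1 TGFβR-KO, 1 TGFβR-CA and 2 TGFβR-WT samples, each a pool of mice. Every TGFβR-KO value below thus comes from a single pool and has no replicate. Per the study's methods, TGFβR-KO and TGFβR-WT cells were sequenced in 1 run, and TGFβR-CA and TGFβR-WT cells in another.

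TH17 cells are helper T cells of mucosal tissue that make IL-17A, IL-17F and IL-22, cytokines that act on the epithelium. They are plastic, and in inflamed tissue they can take up T-bet, the master regulator of TH1 cells, and make interferon-γ (IFNγ). Heat shock proteins are chaperones that refold damaged proteins, and their genes, like those of the AP-1 factors FOS and JUN, are switched on within minutes by stress, by receptor signals and by the handling of tissue.

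Each captured RNA molecule carries a unique molecular identifier (UMI), and the authors corrected the UMI numbers to a common depth. A level is the number of such corrected UMIs of a gene in every 10000 of a whole cluster. They are compared between clusters for the same gene, not between genes. A ratio was taken after 0.1 was added to both levels, and it was taken as large when it reached 1.5. The 2 clusters were drawn by the authors from the expression of these same genes, and they come from 1 library, so no test between them was made and no *P* value is given. The median cell held 3940 corrected UMIs and 1430 genes in the tumorigenic cluster, and 3647.5 corrected UMIs and 1305.5 genes in the pretumorigenic cluster. No barcode of these cells occurred in another library.

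The contrast between the clusters was narrow. Of 2983 genes with at least 100 corrected UMIs over both clusters, 185 were at least 1.5 times higher in tumorigenic cells (6.20%) and 88 were at least 1.5 times higher in pretumorigenic cells (2.95%), which left 2710 genes within 1.5. A ratio of at least 2 was reached by 52 and 18 genes. The median log2 ratio of tumorigenic over pretumorigenic cells over all 2983 genes was 0.06. Of the genes past 1.5, 67.8% were higher in tumorigenic cells. This share was 55.1% (162 against 132 genes) when stress, ribosomal and mitochondrial genes were left out of the total, and 49.3% (461 against 474 genes) when genes with at least 10 corrected UMIs were admitted. The genes of largest ratio were *Ccl5*, *Ccl4*, *Klrg1*, *Gramd3* and *Serpinb9* on the tumorigenic side, and *Hspa1b*, *Hspa1a*, *Fos*, *Jun* and *Dnajb1* on the pretumorigenic side.

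**Figure D1:**
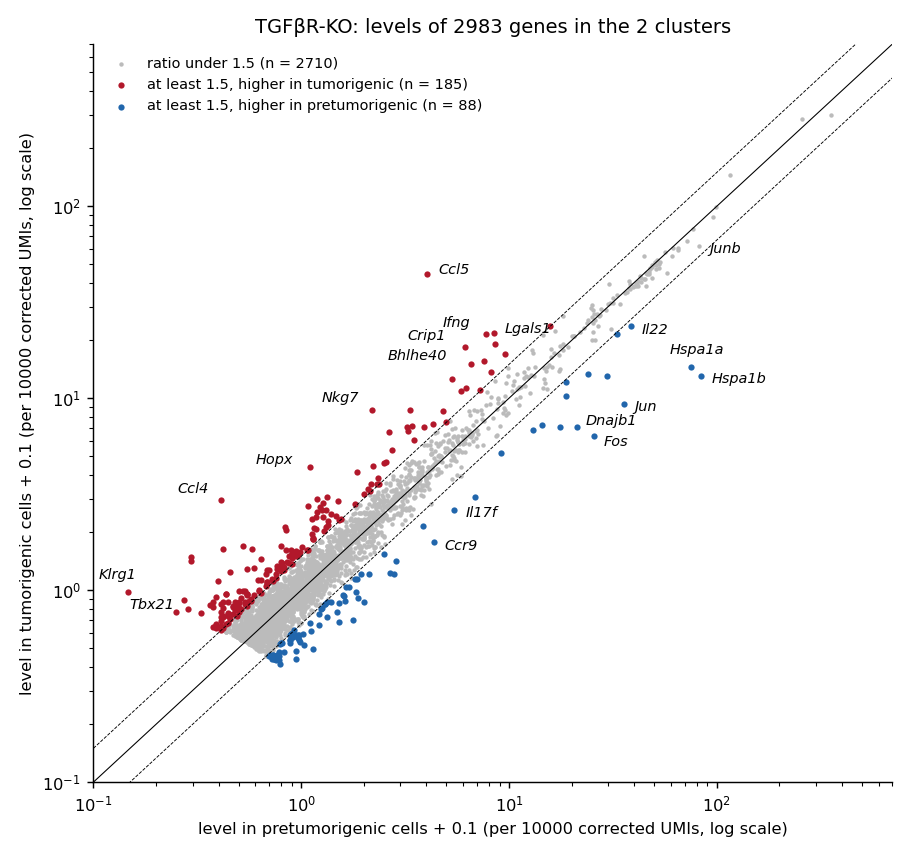
Level of each of 2983 genes in pretumorigenic (horizontal axis) and tumorigenic (vertical axis) TGFβR-KO cells, in corrected UMIs per 10000 after 0.1 was added, on log axes; each point is a gene, the solid line marks equal levels and the dashed lines a ratio of 1.5. Most genes (2710) lie between the dashed lines, 185 lie above them and 88 below, with *Ccl5* (44.4 against 3.94) and *Hspa1b* (13 against 83.6) far out on either side.

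The identity of both clusters as T cells was clear from their markers. *Cd3e*, a chain of the T cell receptor complex, had a level of 9.08 in tumorigenic and 11.1 in pretumorigenic cells, and *Cd4*, the coreceptor used in the sort, had 3.36 and 3.40. None of the 10 T cell marker genes differed by 1.5. The summed levels of the B and plasma cell, epithelial, myeloid, CD8 and γδ T cell, innate lymphoid and stromal marker lists were at most 0.919 in either cluster. *Foxp3*, which defines regulatory T cells, had 4 corrected UMIs in all tumorigenic cells and 0 in pretumorigenic cells. *Tgfbr2* had a level of 1.20 and 1.40 in the 2 clusters, against 1.48 over all TGFβR-KO cells and 1.73 over TGFβR-WT cells. The library was made with a 3′ protocol, and the reads of *Tgfbr2* may lie outside the deleted part, so this value does not check the deletion. Scrublet, a doublet caller, marked 4 of the 2975 TGFβR-KO cells, too few for the caller to be taken as working, of which 2 were in either cluster.

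The genes by which the study named the clusters lay on the side of their names. Of 9 genes named for the tumorigenic cluster, 6 were at least 1.5 times higher there and 0 in the pretumorigenic cluster, with a median log2 ratio of 0.82. The other 3 were *Nr4a1*, *Nfkbia* and *Tnfaip3*, at 1.34 to 1.39 times. Of 11 genes named for the pretumorigenic cluster, 9 had enough UMIs to be compared and all 9 were at least 1.5 times higher there, with a median log2 ratio of -1.58. *Hspa2* (20 UMIs in tumorigenic and 16 in pretumorigenic cells) and *Tgfbr1* (18 and 16) had too few. The study chose these genes on these cells, so the counts describe the clusters and are not independent evidence of their direction.

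The heat shock response was the largest difference toward the pretumorigenic cells. *Hspa1b*, which encodes the inducible chaperone HSP70, had a level of 13 in tumorigenic and 83.6 in pretumorigenic cells, a ratio of 6.39. Its neighbor *Hspa1a*, which encodes an almost identical HSP70, had 14.4 and 74.9, a ratio of 5.17. The copies lie next to each other on chromosome 17, *Hspa1b* at chr17:34956436-34959238 and *Hspa1a* at chr17:34969190-34972156 (GRCm38, minus strand), and molecules can be assigned to the wrong copy, so they are best read together. Of 24 compared genes of the heat shock list, 10 were at least 1.5 times higher in pretumorigenic cells and 0 in tumorigenic cells, with a median log2 ratio of -0.49 against 0.06 for all genes.

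The members of this response differed in size by their role. *Dnajb1*, the HSP40 partner that delivers substrates to HSP70, had a level of 6.97 in tumorigenic and 21.1 in pretumorigenic cells, a ratio of 2.99. *Hsp90aa1*, the inducible HSP90, had 12.9 and 29.6, a ratio of 2.29, while *Hsp90ab1*, the constitutive HSP90, had 22.7 and 30.9, a ratio of 1.36. *Hspa8*, the constitutive cousin of HSP70, had 12 and 18.7, a ratio of 1.55. The inducible form was thus farther apart than the constitutive form in both families. Co-chaperones went the same way, with *Bag3*, which hands HSP70 clients to autophagy, at 0.397 and 1.03, and *Hsph1*, a nucleotide exchange factor of HSP70, at 0.666 and 1.39. *Hspe1* and *Hspd1*, the mitochondrial chaperonin pair, had ratios of 1.91 and 1.49. *Ubb*, a polyubiquitin gene that supplies ubiquitin under stress, had 21.5 and 33.0, a ratio of 1.53. *Hspa5*, the chaperone of the endoplasmic reticulum, lay on the other side, at 14.2 in tumorigenic and 9.82 in pretumorigenic cells.

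Heat shock factors bind repeats of the unit GAA in alternating direction, and the promoter windows of 3 heat shock genes that hold such a match are shown. The windows below are from RefSeq (GRCm38.p6), with the match in capitals. Those of *Hspa1a* (chr17:34972228-34972285, minus strand) and *Hspa1b* (chr17:34959310-34959367, minus strand) lie 129 to 72 bases before the start and are the same, and over the 250 bases before the start the pair shares 247 bases (98.8%). That of *Hspe1* (chr1:55088034-55088101, plus strand) lies 114 to 47 bases before the start and holds 2 overlapping matches.
Hspa1a: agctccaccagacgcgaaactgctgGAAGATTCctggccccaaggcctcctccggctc
Hspa1b: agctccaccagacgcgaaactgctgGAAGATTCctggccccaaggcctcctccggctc
Hspe1: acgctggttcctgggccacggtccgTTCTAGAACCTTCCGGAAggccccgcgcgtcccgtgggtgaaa

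Both strands of the window from 250 bases before to 50 bases after the start were searched. The full element, which is GAANNTTC followed by GAA after 2 free bases, was in 5 of 19 heat shock genes with a window (26.3%), namely *Hsph1*, *Hspd1*, *Hspe1*, *Dnajb6* and *Chordc1*, against 0.760% of all compared genes and 0.603% of all 32851 windows. It was not matched in *Hspa1a* or *Hspa1b*. Its shorter core GAANNTTC, which lies inside the element and was added after the values were seen, was in 10 of the 19 (52.6%), against 7.09% of all compared genes. The core was in 11.6% of the genes past 1.5 on the pretumorigenic side, *Jun* and *Bag3* among them, and in 7.09% of those on the tumorigenic side. The windows of *Hspd1* and *Hspe1* overlap, and their matches are the same bases read on opposite strands. Those of *Hspa1a* and *Hspa1b* are nearly identical copies. Each pair was counted as 2 genes, so the shares above count some matches more than once. A match describes these letters and does not show binding.

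The HSP70 pair was lower in most tumorigenic cells, though some reached pretumorigenic levels. The summed level of *Hspa1a* and *Hspa1b* per cell had a median of 97.6 in pretumorigenic cells (quartiles 39.4 and 216), and 6.09% of these cells had neither gene. In tumorigenic cells the median was 0, since 53.5% had neither gene, while the highest 10% of cells were at 80.5 or above. Only 32 tumorigenic cells (8.86%) reached the pretumorigenic median. The distributions thus overlapped at the top. Where tumorigenic cells had *Hspa1a*, it was at 15.4 corrected UMIs per positive cell, against 33.8 in pretumorigenic cells, and the 10% of cells with the most held 83.9% of its UMIs in tumorigenic and 38.9% in pretumorigenic cells. *Hspa1a* was found in 36.6% (95% confidence interval (CI) 31.6 to 41.8) of tumorigenic and 83.9% (78.5 to 88.4) of pretumorigenic cells. For comparison, 19.3% of the 519 TGFβR-KO tissue-resident follicular helper T (TFH) cells had it, at a median of 3575 corrected UMIs. All intervals of shares are exact Clopper-Pearson intervals and cover counting error only.

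**Figure D2:**
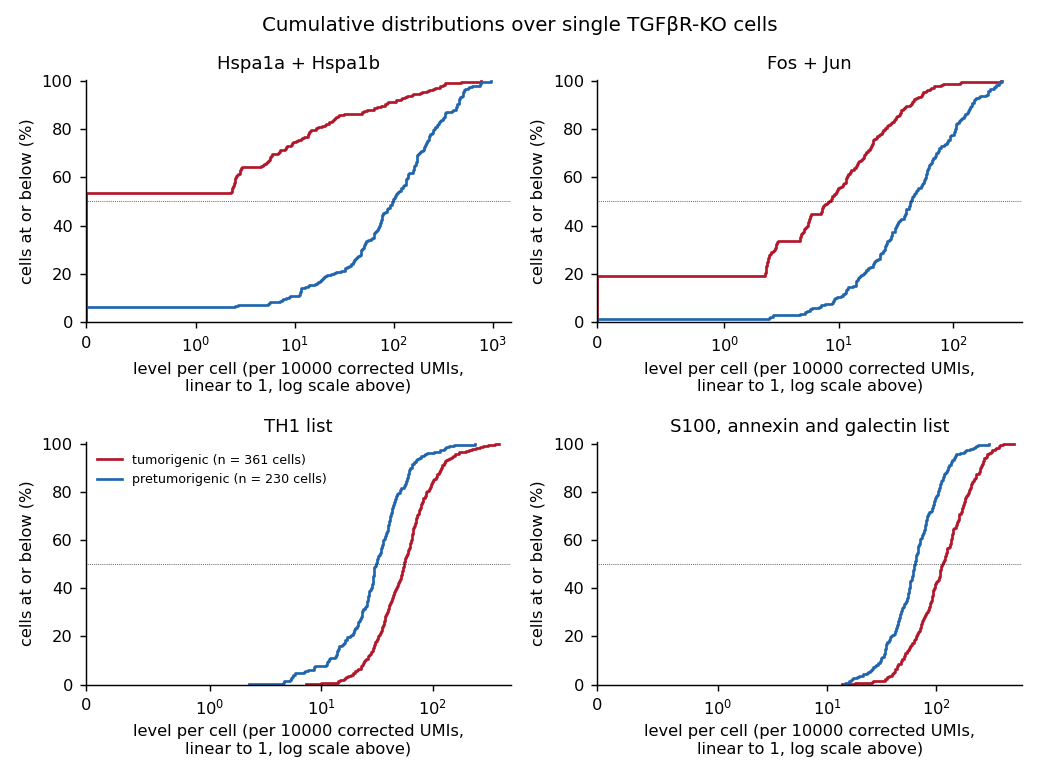
Share of cells (vertical axis, percent) at or below each level (horizontal axis, corrected UMIs per 10000, linear up to 1 and log above) in 361 tumorigenic (red) and 230 pretumorigenic (blue) cells, for the sums of *Hspa1a* and *Hspa1b*, *Fos* and *Jun*, the TH1 list, and the S100, annexin and galectin list. The stress gene curves part widely, with 53.5% of tumorigenic cells at 0 for the HSP70 pair, while the TH1 and S100 curves are shifted the other way, with medians of 55.1 against 30.9 and 116 against 63.8.

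Immediate-early AP-1 genes were also higher in pretumorigenic cells. *Fos* had a level of 6.28 in tumorigenic and 25.6 in pretumorigenic cells, a ratio of 4.04, and *Jun* had 9.25 and 35.6, a ratio of 3.82. These are the classic partners of the AP-1 dimer. The other members were closer, with *Junb* at 62.2 and 81.6, *Jund* at 38.1 and 45.5, and *Fosb* at 2.54 and 3.37. *Fosl2*, a FOS relative that represses parts of the TH17 program, lay on the other side, at 2.51 in tumorigenic and 1.16 in pretumorigenic cells. Of 8 compared AP-1 genes, 2 were at least 1.5 times higher in pretumorigenic and 1 in tumorigenic cells. The sum of *Fos* and *Jun* per cell had a median of 8.25 in tumorigenic and 42.6 in pretumorigenic cells, and 9.97% of tumorigenic cells reached the pretumorigenic median. The AP-1 motif TGANTCA was in 8.70% of promoter windows of the genes past 1.5 on the pretumorigenic side and 9.22% on the tumorigenic side, against 6.04% of all compared genes.

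Feedback genes of the same signals did not all lie on 1 side. *Dusp1*, a phosphatase that switches off stress kinases, had a level of 7.12 in tumorigenic and 14.3 in pretumorigenic cells, whereas *Dusp5*, a phosphatase for ERK in the nucleus, had 8.55 and 3.23. *Egr1*, a zinc finger factor induced by growth and receptor signals, had 1.11 and 2.71, and *Zfp36*, which destabilizes cytokine mRNAs, had 5.09 and 9.09. In contrast, the receptor-induced genes *Nr4a3*, a nuclear receptor of activated T cells, and *Gem*, a small GTPase, were higher in tumorigenic cells, at 2.25 against 1.02 and 4.31 against 2.11. Over the whole list of T cell receptor-induced genes, 3 of 15 were higher in tumorigenic and 2 in pretumorigenic cells, with a median log2 ratio of -0.04. Krüppel-like factors were divided too. *Klf6* (13.2 against 23.8) and *Klf4* (1.12 against 2.02) were higher in pretumorigenic cells. *Klf2*, which drives the genes of lymphocyte exit (13.5 against 8.09), *Klf3* (1.17 against 0.712) and *Klf7* (0.885 against 0.402) were higher in tumorigenic cells.

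A list of genes known to be induced while tissue is dissociated, which includes *Fos*, *Jun*, *Hspa1a*, *Hspa1b* and *Dusp1*, moved with these differences. Of its 58 compared genes, 19 were at least 1.5 times higher in pretumorigenic and 6 in tumorigenic cells, and its summed level was 763 against 508. Its median per cell was 700 in pretumorigenic and 483 in tumorigenic cells. The cells of both clusters went through the same dissociation in the same library, and the part of it in the difference was not tested.

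*Ifng*, the gene of IFNγ, was higher in tumorigenic cells. It had a level of 21.5 in tumorigenic and 7.66 in pretumorigenic cells, a ratio of 2.79. *Ifng* was found in 60.1% (CI 54.9 to 65.2) of tumorigenic and 41.7% (35.3 to 48.4) of pretumorigenic cells, against 1.35% of tissue-resident TFH cells. Cells that had it also held more, 14 against 6.95 corrected UMIs per positive cell. Thus both the share of *Ifng* cells and the amount per cell were higher in the tumorigenic cluster, and the pretumorigenic cluster was not without it.

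The regulators of the TH1 program followed *Ifng* in part. *Tbx21*, which encodes T-bet, had a level of 0.701 in tumorigenic and 0.184 in pretumorigenic cells and was found in 19.7% (15.7 to 24.1) and 5.22% (2.72 to 8.94) of them. *Bhlhe40*, a transcription factor that promotes IFNγ and GM-CSF in helper T cells, had 15 and 6.44 and was found in 93.9% and 63.5% of cells. *Hopx*, a small homeobox cofactor linked to the survival of TH1 cells, had 4.26 and 0.999, a ratio of 3.97. The receptors for TH1 signals were divided. *Ifngr1*, the ligand-binding chain of the IFNγ receptor (6.54 against 2.55), *Il18rap*, the accessory chain of the IL-18 receptor (1.53 against 0.482), and *Il2rb*, shared by the IL-2 and IL-15 receptors (2.64 against 0.976), were 2.51, 2.80 and 2.55 times higher in tumorigenic cells. *Il12rb2*, the inducible chain of the IL-12 receptor, had 56 UMIs in tumorigenic and 3 in pretumorigenic cells, too few to be compared.

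Other TH1 genes were nearly level. *Cxcr3*, the TH1 chemokine receptor, had 1.07 and 0.953, *Runx3*, which works with T-bet at *Ifng*, had 3.14 and 2.24, and *Stat4*, which relays IL-12, had 1.13 and 0.965. *Eomes*, the other T-box factor of cytotoxic T cells, had no UMI in either cluster. Of the 14 compared genes on the TH1 list, 6 were at least 1.5 times higher in tumorigenic cells and 0 in pretumorigenic cells, with a median log2 ratio of 0.34.

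*Furin* and *Pim1*, also named by the study for the tumorigenic cluster, were higher by less. *Furin*, a protease that matures TGFβ1 among other proteins and is induced in TH1 cells, had a level of 23.6 in tumorigenic and 15.7 in pretumorigenic cells. Its ratio of 1.51 was below 1.5 when 0.5 in place of 0.1 was added, when stress, ribosomal and mitochondrial genes were left out of the total, or when the cells with the most genes were left out. *Pim1*, a survival kinase induced by cytokines, had 16.9 and 9.50.

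Chemokine genes were the largest difference toward the tumorigenic cells. *Ccl5*, which attracts T cells and monocytes, had a level of 44.4 in tumorigenic and 3.94 in pretumorigenic cells, a ratio of 11. *Ccl4*, another chemokine of effector lymphocytes, had 2.85 and 0.310, a ratio of 7.20. They lie close to each other on chromosome 11, *Ccl5* at chr11:83525778-83530518 and *Ccl4* at chr11:83662584-83664683 (GRCm38). *Ccl5* was found in 37.4% (32.4 to 42.6) of tumorigenic and 19.6% (14.6 to 25.3) of pretumorigenic cells. Since 12.1% of tissue-resident TFH cells had it as well, its share in pretumorigenic cells lay not far above that in a cell type not known for it. The levels were farther apart, at 3.94 in pretumorigenic and 0.617 in tissue-resident TFH cells. *Cxcl10*, which is induced by IFNγ, was not higher in tumorigenic cells, at 0.736 against 1.14.

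Genes of cytotoxic lymphocytes were higher in tumorigenic cells as well, although granule effectors were not the main part of it. *Nkg7*, which takes part in granule release, had a level of 8.61 in tumorigenic and 2.09 in pretumorigenic cells and was found in 54.6% (49.3 to 59.8) and 29.6% (23.7 to 35.9) of them, against 2.31% of tissue-resident TFH cells. *Klrg1*, an inhibitory receptor of terminally differentiated effector cells, had 124 UMIs in tumorigenic and 4 in pretumorigenic cells, and was found in 16.6% (12.9 to 20.9) and 1.74% (0.476 to 4.39) of cells. *Serpinb9* (1.32 against 0.195) and *Serpinb6b* (2.03 against 0.735), which protect a cell from proteases of its own granules, and *Ctsw*, a protease of cytotoxic cells (1.15 against 0.356), were 4.82, 2.55 and 2.73 times higher.

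Among the granzymes, *Gzmb*, the protease that starts apoptosis in target cells, had 1.86 and 1.02 and was found in 18.0% of tumorigenic and 7.39% of pretumorigenic cells. *Gzma* was level at 1.76 and 1.53, and *Prf1*, the pore former, had 9 and 2 UMIs. The exception on the other side was *Cd160*, a receptor of intraepithelial lymphocytes, at 0.312 against 0.689. In all, 6 of 11 compared cytotoxic genes were at least 1.5 times higher in tumorigenic cells and 1 in pretumorigenic cells.

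TH17 cytokine genes were found in more pretumorigenic cells. *Il22*, whose product acts on epithelial cells, had a level of 23.6 in tumorigenic and 38.6 in pretumorigenic cells, a ratio of 1.64 toward the pretumorigenic cluster. It was found in 33.5% (28.7 to 38.6) and 52.6% (45.9 to 59.2) of cells, against 5.97% of tissue-resident TFH cells. Cells that had it held nearly the same amount, 27.5 and 27.8 corrected UMIs per positive cell, so that the clusters differed in the share of *Il22* cells and not in the amount per such cell. *Il22* lies at chr10:118204942-118210047 (GRCm38), in the same stretch of chromosome 10 as *Ifng* (chr10:118441046-118445892), and molecules of its near copy *Iltifb* (0.382 and 0.838) can be mistaken for it.

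*Il17f* had a level of 2.51 in tumorigenic and 5.36 in pretumorigenic cells and was found in 10.2% and 18.3% of them. *Il17a*, the gene that drives Cre and YFP in these mice, had 6.32 and 8.61 and was found in 14.1% (10.7 to 18.2) and 23.0% (17.8 to 29.0) of cells, so most sorted cells had no *Il17a* UMI. Its UMIs sat in few cells, with 98.3% of them in the highest 10% of tumorigenic cells. When the 5% of cells with the most *Il17a* were left out of either cluster, the pretumorigenic level was 3.83 times higher instead of 1.36 times. This setting was chosen after the values were seen. Since fewer tumorigenic cells had *Il17a*, it left out a larger part of such cells there, so 3.83 is not a corrected ratio.

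The transcription factors of the TH17 program did not move as a block. *Ahr*, the ligand-activated factor that drives *Il22*, had a level of 0.481 in tumorigenic and 0.873 in pretumorigenic cells. *Ccr6*, the chemokine receptor of TH17 cells, had 0.581 and 1.42. By contrast *Rora*, a nuclear receptor of TH17 cells, had 15.5 and 7.51, and *Irf4*, which is needed for TH17 differentiation, had 1.48 and 0.884. *Maf*, which restrains inflammatory cytokines, had 11.1 and 15.2. Of 15 compared TH17 genes, 5 were at least 1.5 times higher in pretumorigenic and 2 in tumorigenic cells, with a median log2 ratio of -0.37.

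Other effector cytokines were divided or level. *Csf2*, which encodes GM-CSF, a cytokine of pathogenic TH17 cells, had 1.56 in tumorigenic and 1.85 in pretumorigenic cells. *Tnf* had 1.82 and 2.17, and *Ltb*, a lymphotoxin chain that organizes lymphoid tissue, had 5.25 and 5.63. These 3 were within 1.5. *Areg*, an epidermal growth factor family ligand that acts on epithelium (2.95 against 1.23), *Csf1*, the growth factor of macrophages (0.786 against 0.172), and *Fasl*, a death ligand (0.857 against 0.333), were over 2 times higher in tumorigenic cells. *Tgfb1* had 1.52 and 1.03.

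**Figure D3:**
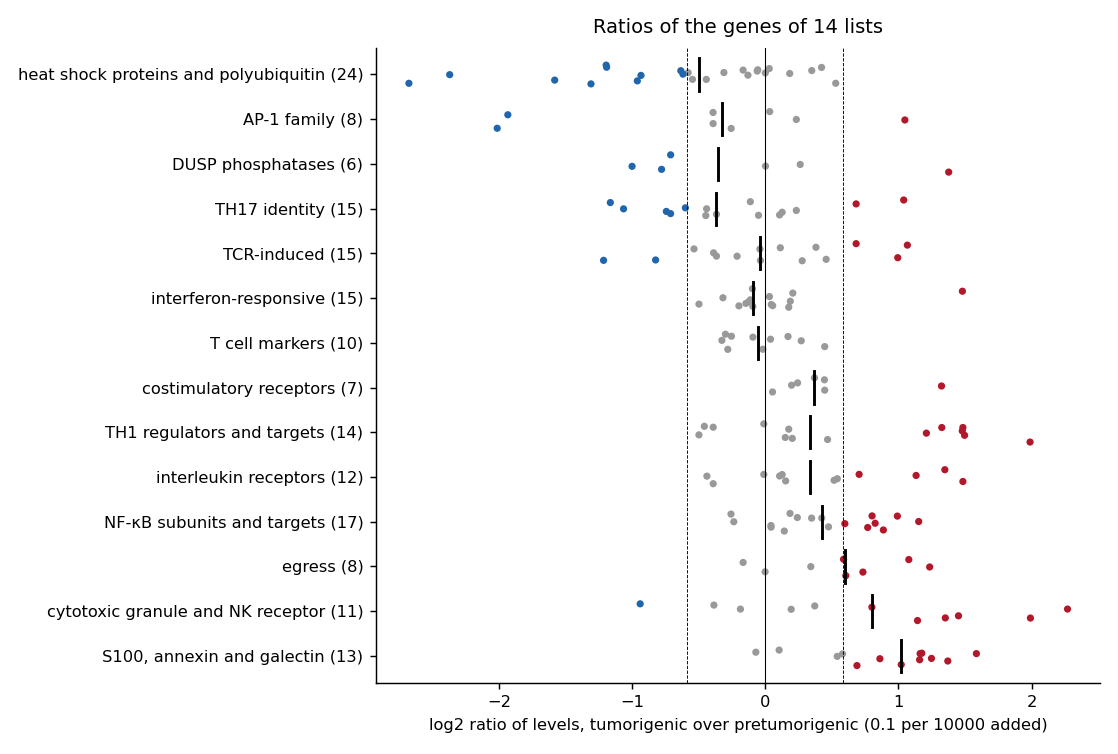
Log2 ratio of the level in tumorigenic over pretumorigenic cells (horizontal axis) for the compared genes of 14 lists (rows, with the number of genes); each point is a gene, colored where it is past 1.5 (dashed lines), and the thick bar on each row marks the median. S100, annexin and galectin genes (median 1.02) and cytotoxic genes (0.80) lie to the right, heat shock (-0.49), TH17 (-0.37) and AP-1 (-0.32) genes to the left, and T cell markers (-0.06) near the middle.

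NF-κB genes were moderately higher in tumorigenic cells. *Rel*, the c-Rel subunit that acts downstream of the T cell receptor, had a level of 5.98 in tumorigenic and 3.39 in pretumorigenic cells. *Nfkbiz*, a nuclear inhibitor family member needed by TH17 cells, had 7.24 and 4.20. The feedback inhibitors *Nfkbia* (22.3 against 16.6) and *Tnfaip3*, which encodes A20 (17.7 against 12.7), were within 1.5. Survival genes of the pathway were farther apart, with *Bcl2a1b* at 4.03 and 1.76, *Bcl2a1d* at 2.52 and 1.22, and *Birc3* at 0.892 and 0.436. The *Bcl2a1* copies are near-identical and their UMIs can be exchanged. In all, 7 of 17 compared NF-κB genes were at least 1.5 times higher in tumorigenic cells and 0 in pretumorigenic cells, with a median log2 ratio of 0.42. The subunits *Nfkb1* (1.04 and 1.26) and *Rela* (0.765 and 0.632) were nearly level.

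*Nr4a1*, an early mark of T cell receptor signaling, was high in both clusters. Its level was 10.7 in tumorigenic and 7.76 in pretumorigenic cells and it was found in 83.4% and 67.8% of them, against 1.16% of tissue-resident TFH cells. When the 5% of cells with the most of a gene were left out of each cluster, the ratio of *Nr4a1* was 1.57 and that of *Nfkbia* 1.61 toward the tumorigenic cells. That of *Tnfaip3* was 1.44, still below 1.5. This setting was chosen after the values were seen.

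S100, annexin and galectin genes were higher in tumorigenic cells as a group. *S100a4*, a calcium-binding protein of motile and effector-memory cells, had a level of 12.5 in tumorigenic and 5.21 in pretumorigenic cells and was found in 80.6% (76.1 to 84.6) and 51.7% (45.1 to 58.4) of them. *S100a6* had 19.0 and 8.45, *Lgals1*, which encodes the secreted lectin galectin-1, had 21.8 and 8.37, and *Crip1*, a small zinc-binding LIM protein, had 18.4 and 6.06. *Vim*, the intermediate filament of lymphocytes (11.2 against 6.10), *Anxa2*, a membrane scaffold (2.29 against 1.08), and *Ahnak*, its large partner (2.75 against 1.17), went the same way. *S100a11* was the exception, at 14.7 and 15.4. Of 13 compared genes of the list, 9 were at least 1.5 times higher in tumorigenic cells and 0 in pretumorigenic cells. Of the tumorigenic cells, 81.4% were at or above the pretumorigenic median of 63.8 for the summed list.

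Receptors that place T cells in the gut differed in kind. *Ccr9*, the receptor for the small intestinal chemokine CCL25, had a level of 1.67 in tumorigenic and 4.25 in pretumorigenic cells and was found in 28.0% (23.4 to 32.9) and 59.1% (52.5 to 65.5) of them, against 6.74% of tissue-resident TFH cells. *Rgs1*, which dampens chemokine receptors and holds T cells in the gut, had 10.2 and 18.6. *Cxcr6*, a receptor of tissue-resident T cells, lay the other way at 7.42 and 4.86, as did the integrin chains *Itgb1* (1.19 and 0.448) and *Itgb2* (2.03 and 1.22). Of 8 compared genes of the exit and migration list, 5 were at least 1.5 times higher in tumorigenic cells and 0 in pretumorigenic cells, among them *Emp3* (7.09 against 3.31), *Lsp1*, an actin-binding protein of leukocytes (10.9 against 7.14), and *S1pr1*, the receptor that leads T cells out of tissue (0.637 against 0.391).

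The checkpoint genes were divided. *Ctla4* had 11.1 in tumorigenic and 10.8 in pretumorigenic cells, whereas the other 2 of 3 compared genes were at least 1.5 times higher in pretumorigenic cells. These were *Tox*, a factor of exhausted T cells, at 0.489 and 0.919, and the receptor gene *Cd160*, at 0.312 and 0.689. Of 7 compared costimulatory receptors 1 was past 1.5, *Tnfrsf4*, which encodes OX40, at 2.88 and 1.09, while *Icos* (6.80 and 5.24) and *Cd28* (9.07 and 7.65) were within 1.5. Of the interleukin receptor chains not named above, *Il21r* (1.37 and 0.804) and the decoy *Il1r2* (0.850 and 0.333) were higher in tumorigenic cells.

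Several of the genes farthest apart belonged to none of these groups. Toward the tumorigenic cells these were *Gramd3* (1.38 against 0.195), *Ermn* (1.61 against 0.425), *Dennd4a* (0.666 against 0.149) and *Irf7*, a regulator of interferon genes (1.01 against 0.299). Toward the pretumorigenic cells they were *Rhob*, a stress-induced small GTPase (0.602 against 1.67), *Cmc2* (0.765 against 1.91), *Lmo4*, a LIM-only cofactor (2.97 against 6.78), *Rgs10*, a regulator of G protein signals (0.807 against 1.78), and *Asb2* (1.32 against 2.75). The antisense genes *B930036N10Rik* (1.13 against 2.58) and *Gm20069* (0.340 against 0.838) were on this side, and their reads depend on how strand was counted.

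Despite these differences, the clusters shared a set of genes that set both apart from the other TGFβR-KO cells. In 24 of 2983 genes (0.805%), both clusters were at least 3 times above the highest of the other 6 clusters. They included *Il22*, *Csf2* and *Areg*, the receptor-induced genes *Nr4a1*, *Tnfaip3*, *Cd69* and *Gem*, the phosphatases *Dusp1*, *Dusp4* and *Dusp5*, and *Junb*, *Fosb*, *Fosl2*, *Klf4*, *Klf6* and *Dnajb1*. Of these 24, 6 were at least 1.5 times higher in tumorigenic cells, 7 in pretumorigenic cells, and 11 were within 1.5. The lower of the 2 clusters exceeded the next cluster 7.23 times for *Dnajb1*, 6.18 times for *Junb*, 4.70 times for *Tnfaip3* and 4.36 times for *Il22*. *Nr4a1* had a level of 1.73 in the next cluster, cycling cells, and at most 0.739 in the rest. The clusters were drawn from these genes, so this is a description of them.

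Genes of the tumorigenic side outside this set had no such common pattern. *Ccl5* and *Nkg7* had their highest level in the cytotoxic T lymphocyte (CTL) cluster, 124 and 15.2, above the tumorigenic cells, and *Hopx* had 4.43 there. *Ifng*, however, had 3.44 in CTL and 4.06 in cycling cells, so the tumorigenic cluster at 21.5 was highest and the pretumorigenic cluster at 7.66 came next. *S100a4* had 11.9 in the migratory cluster, close to the tumorigenic level of 12.5, and *Ccr9* was highest in the activated cluster, at 10.2.

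Pretumorigenic cells were found in the other genotypes too, 79 TGFβR-WT and 83 TGFβR-CA cells, whereas tumorigenic cells numbered 5 and 2 there, too few for levels. The HSP70 gene *Hspa1a* had a level of 19.9 in TGFβR-WT and 18.7 in TGFβR-CA pretumorigenic cells, which lay between the tumorigenic level of 14.4 and the pretumorigenic level of 74.9 of TGFβR-KO cells. *Fos* was alike at 25 in TGFβR-WT and 25.6 in TGFβR-KO, and *Klf6* at 23.6 and 23.8, while *Jun* was at 70.3 in TGFβR-WT and 35.6 in TGFβR-KO. *Il22* was at 2.12 in TGFβR-WT and 7.90 in TGFβR-CA pretumorigenic cells. *Csf2* had no UMI in either. *Ifng* was at 2.32 and 1.91. The TGFβR-WT cells come from 2 libraries of different runs, which the table does not assign to the samples. TGFβR-KO and TGFβR-CA cells were also sequenced in different runs, so genotype and run cannot be told apart between them. In the set of 27 cells and the set of 52 cells, *Jun* was at 40.4 and 83.7, *Il22* at 5.93 and 0.396, and *Nr4a1* at 3.84 and 0.248. *Hspa1a* was at 29.3 and 15.7, *Klf6* at 16.9 and 26.6, and *Fos* at 28.1 and 23.6. The pooled TGFβR-WT levels of *Jun* and *Il22* thus rest on sets that lay far apart, and those of *Hspa1a* and *Klf6* on sets that also differed.

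**Figure D4:**
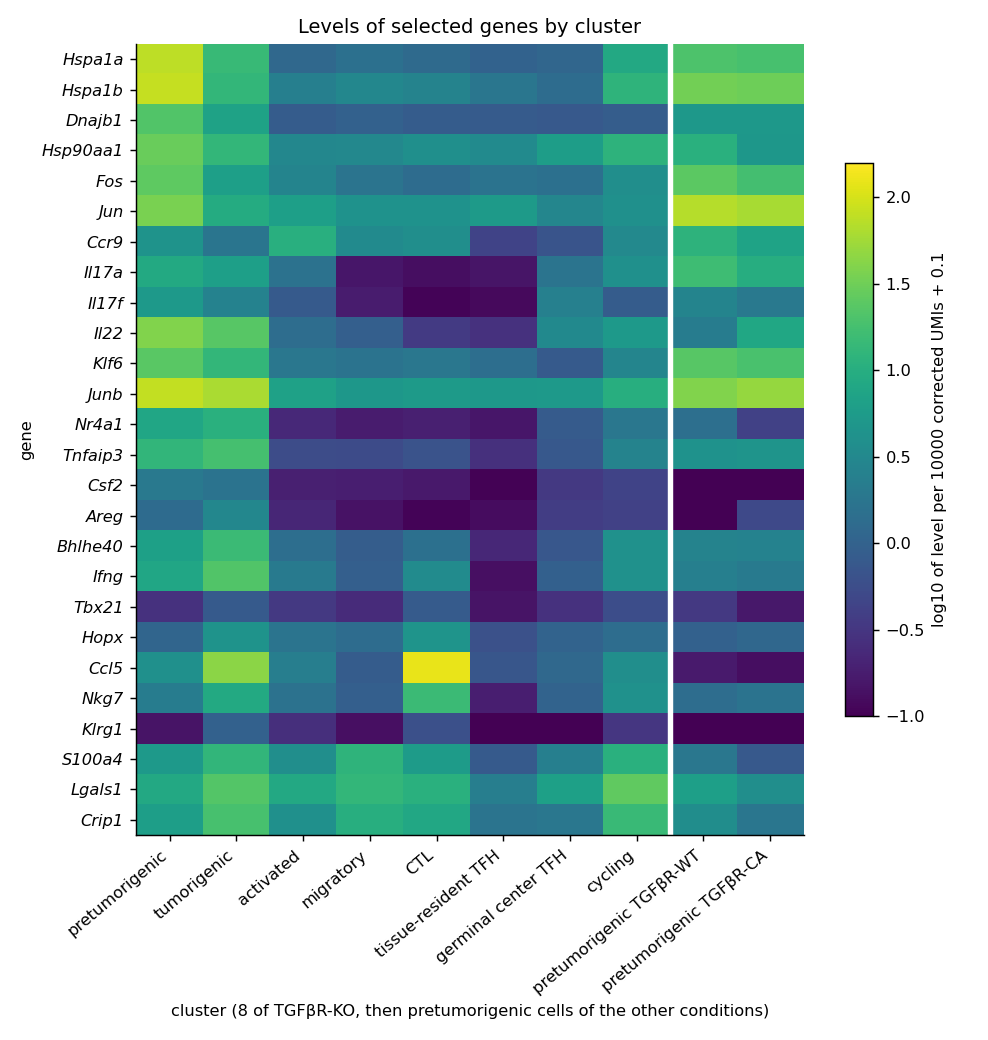
Level (color, log scale, corrected UMIs per 10000) of 26 genes (rows) in the 8 TGFβR-KO clusters and in the pretumorigenic cells of TGFβR-WT and TGFβR-CA mice (columns). *Il22*, *Junb*, *Nr4a1* and *Tnfaip3* are higher in the tumorigenic and pretumorigenic columns than in the other 6 TGFβR-KO clusters, whereas *Ccl5* and *Nkg7* are highest in CTL (124 and 15.2) and *Fos* and *Jun* are high in the pretumorigenic cells of all 3 genotypes.

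Genes of both programs were counted in the same cells. *Ifng* and *Il17a* were found together in 5.54% (3.42 to 8.43) of tumorigenic and 7.39% (4.36 to 11.6) of pretumorigenic cells, against 8.49% and 9.62% from the product of the single shares. *Ifng* with *Tbx21* was found in 17.2% of tumorigenic cells, against 11.8% from the product, and *Ifng* with *Ccl5* in 31.0%, against 22.5%. *Ifng* and *Il22* were found together in 13.6% (10.2 to 17.5) of tumorigenic cells, below the product of 20.1%, and in 21.3% (16.2 to 27.2) of pretumorigenic cells, close to the product of 22%. In pretumorigenic cells *Ifng* with *Tbx21* was found in 4.35% (2.10 to 7.85), against 2.18% from the product. *Ifng* with *Ccl5* was found in 10.4% (6.80 to 15.1) of them, against 8.17%. Both shares were above the product, as in tumorigenic cells, but their intervals included it. Thus in tumorigenic cells *Ifng* went with *Tbx21* and *Ccl5* and apart from *Il22*.

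The tumorigenic cluster was therefore divided by *Il22*, a split made after the values were seen. Of the 361 tumorigenic cells, 121 had *Il22* and 240 did not, and their median depths were 4031 and 3786.5 corrected UMIs. *Ifng* was found in 40.5% (31.7 to 49.8) of those with *Il22* and 70.0% (63.8 to 75.7) of those without. These *Ifng* shares restate the pair counts above, by which the split was chosen, and are not a further result. *Ccl5* was found in 19.8% (13.1 to 28.1) and 46.2% (39.8 to 52.8), and *Nkg7* in 28.1% (20.3 to 37.0) and 67.9% (61.6 to 73.8). *Klrg1* was nearly restricted to cells without *Il22*, at 1.65% (0.201 to 5.84) and 24.2% (18.9 to 30.1). The TH17 genes went the other way. *Il17a* was found in 32.2% (24.0 to 41.3) of tumorigenic cells with *Il22* and 5.0% (2.61 to 8.57) of those without, *Ahr* in 19.0% and 7.08%, and *Ccr9* in 47.9% (38.8 to 57.2) and 17.9% (13.3 to 23.4).

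In level, the split was as wide as that between the clusters. *Ifng* had a level of 7.56 in tumorigenic cells with *Il22*, close to the 7.66 of the whole pretumorigenic cluster, and 28.8 in those without. *Ccl5* had 3.11 and 65.8, again near the pretumorigenic 3.94 in the cells with *Il22*, and *Nkg7* had 2.15 and 12, next to the pretumorigenic 2.09. Not every tumorigenic gene followed. *Bhlhe40* had 13.8 and 15.7, *Tnfaip3* 18.0 and 17.6, and *Nr4a1* 10.6 and 10.8 in cells with and without *Il22*, all above their pretumorigenic levels of 6.44, 12.7 and 7.76. *S100a4* was in between, at 9.23 and 14.2.

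The stress genes did not mark the *Il22* cells of the tumorigenic cluster. *Fos* had 7.10 and 5.85 and *Jun* 9.92 and 8.91 in cells with and without *Il22*, far from the pretumorigenic 25.6 and 35.6. *Hspa1a* had a lower level in cells with *Il22*, at 7.62 against 18.0. Its share of cells was alike, at 34.7% (26.3 to 43.9) with and 37.5% (31.4 to 44.0) without *Il22*. The tumorigenic cells with *Il22* thus resembled pretumorigenic cells in *Ifng*, *Ccl5* and *Nkg7* but not in *Fos*, *Jun* or *Hspa1a*.

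In pretumorigenic cells the shares of cells with *Ifng*, *Ccl5* and *Nkg7* were not divided in this way. *Il17a* and *Ccr9* were again found in more cells with *Il22*. There, 121 cells had *Il22* and 109 did not, and *Ifng* was found in 40.5% (31.7 to 49.8) and 43.1% (33.7 to 53.0) of them, *Ccl5* in 17.4% and 22%, and *Nkg7* in 28.9% and 30.3%. *Klrg1* was found in 3 and 1 cells. *Il17a* was found in 29.8% (21.8 to 38.7) of cells with *Il22* and 15.6% (9.36 to 23.8) of those without. *Ccr9* was found in 68.6% (59.5 to 76.7) and 48.6% (38.9 to 58.4). The intervals for *Ifng*, *Ccl5*, *Nkg7* and *Il17a* overlapped, and those for *Ccr9* did not. No test was made of whether the split differed between the clusters, since the cells of 1 library are not replicates. When each cell was thinned to 3000 corrected UMIs, *Ifng* was found in 34.2% of tumorigenic cells with and 67.2% of those without *Il22*, and in 35.6% and 40.2% of pretumorigenic cells.

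**Figure D5:**
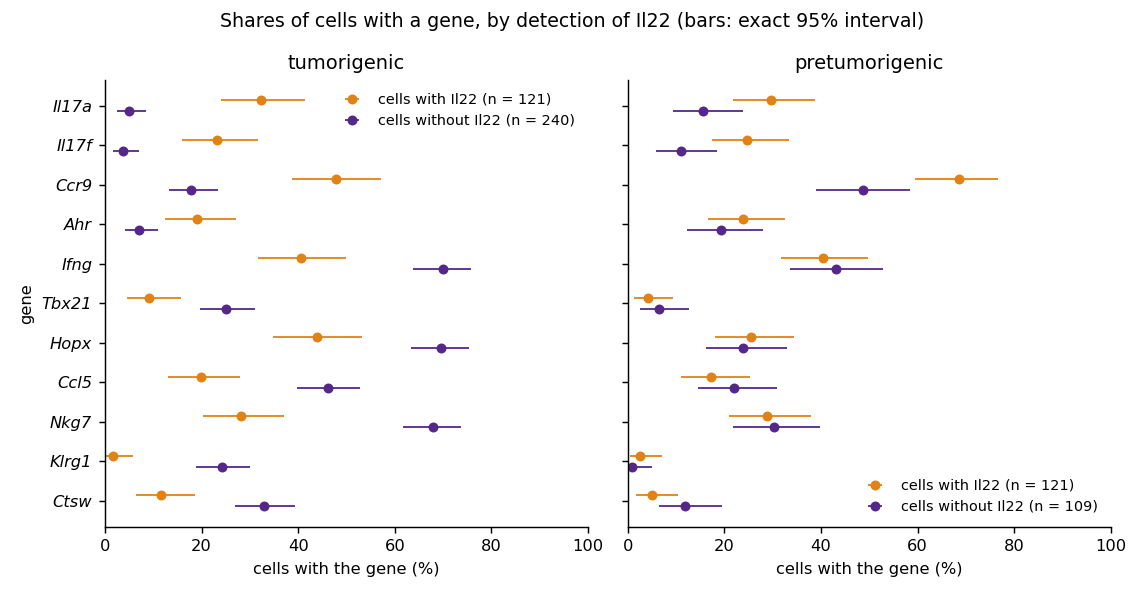
Share of cells with each gene (horizontal axis, percent; bars are exact 95% intervals) among cells with and without *Il22* in the tumorigenic (121 and 240 cells) and pretumorigenic (121 and 109 cells) clusters. In tumorigenic cells *Ccl5*, *Nkg7* and *Klrg1*, like *Ifng* (40.5% against 70.0%), lie apart from *Il17a* (32.2% against 5.0%) and *Ccr9*. The *Ifng* shares restate the pair counts by which the split was chosen. In pretumorigenic cells the intervals of the *Ifng* shares (40.5% and 43.1%) overlap, while those of *Ccr9* do not.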

How the data were processed

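The scRNA-seq data were generated by the authors with a droplet-based 3′ kit from sorted YFP+CD4+ T cells of pooled mice. Per the methods and the submitters' processing notes, reads were counted with Cell Ranger 3.1.0 on mm10. Seurat was used to keep cells with 1000 to 5000 genes and less than 10% mitochondrial reads, to normalize with SCTransform, to integrate on 3000 features and to cluster with 10 dimensions at a resolution of 0.5, and γδ T cells and epithelial cells were removed. In the deposited table of 13265 genes and 5080 cells, which also gives each cell's cluster name, the authors took the natural log of the corrected UMI number after adding 1. All 7880276 values above 0 became whole numbers (tolerance 1e-06) once the log was undone. Correction sets a common depth, so the values are not raw counts, the original depth is unknown, and no count model was fitted.

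Corrected UMIs were summed over 361 tumorigenic cells (1412301 in all) and 230 pretumorigenic cells (870644) and scaled to 10000. Genes with at least 100 corrected UMIs over both clusters were compared by ratio after 0.1 was added, with no test. Shares have exact Clopper-Pearson 95% intervals. Genes named are those the study names for these clusters, the 20 with the largest ratio in each direction among genes found in at least 10% of the cells of the higher cluster, and members of gene lists with the highest levels or largest ratios. The genes high in both clusters, the splits by *Il22* and *Hspa1a*, *Iltifb*, the genes given there and the core motif were chosen after their values were seen. The clusters, lists and genes were chosen with earlier results of these data known. Cells labelled R in the table were taken as TGFβR-KO. Alternatives changed the UMI minimum (10, 200), the added value (0.02, 0.5), the average (mean of ln values), the total, and the cells (shared barcodes, doublets, 5% with most genes, thinning to 3000). Python 3.11.15, numpy 2.4.6, scipy 1.17.1, pandas 2.3.3, scanpy 1.11.5 (Scrublet) and matplotlib 3.10.9 were used, and the steps were tested on simulated data. Gene positions are from GENCODE on GRCm38 and promoters from RefSeq on GRCm38.p6. No replicate exists for either cluster. Some items are not reported here.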

Additional observations from a re-analysis of the deposited data

How the results depend on the processing

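No paired analysis was possible because both clusters come from 1 sample and no test was made, and leaving out a replicate was not possible either. The count of genes past 1.5 depended on the settings. Higher in tumorigenic and in pretumorigenic cells were 461 and 474 genes with at least 10 corrected UMIs, 111 and 44 with at least 200, 86 and 38 with 0.5 added, 24 and 11 with the mean of the deposited ln values, and 284 and 122 without the 5% of cells highest for each gene. The latter setting was chosen after the values were seen. Genes high in both clusters numbered 50 at 2 times and 6 at 4 times the next cluster, in place of 24 at 3 times. The median of *Fos* and *Jun* per tumorigenic cell was 6.67 after thinning. The checkpoint list median was 0.046 with at least 200 corrected UMIs, in place of -0.79, since fewer genes were compared. Of the 50 genes named by the study or by the size of their ratio, 45 were past 1.5, and all 45 kept their direction under every alternative run. With the mean of ln values, 21 of them were still past 1.5. The shares by *Il22* were also computed after thinning and without the cells with the most genes. Of 100 shares of cells with a gene, 26 were counted as changed after thinning to 3000 corrected UMIs. Without the cells with the most genes, 0 were. The single pool of mice limits all values, and rare transcripts such as *Tbx21*, *Klrg1* or *Il12rb2* are limited by their UMIs.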

Other observations

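The tumorigenic cluster held a small set of cells with high heat shock levels, chosen here after the values were seen as the 32 of 361 cells at or above the pretumorigenic median of *Hspa1a* and *Hspa1b*. In these 32 cells *Ifng* was found in 100% and had a level of 43.7, against 56.2% and 19.4 in the other 329. *Ccl5* was found in 84.4% and 32.8%, with levels of 178 and 31.6. *Tbx21* had 2.04 and 0.574, *Klrg1* 3.01 and 0.675, *Nkg7* 18.0 and 7.72, and *Klf2* 53.1 and 9.74. The TH1 regulator *Bhlhe40* was lower in the 32 cells, at 9.85 and 15.5, as was the interleukin receptor gene *Il2rb*, at 1.79 and 2.72. The chaperones *Dnajb1* (36.7 and 4.14) and *Hsp90aa1* (48.4 and 9.50) were also higher in these cells, whereas *Fos* was not (5.62 and 6.34), far from its pretumorigenic level of 25.6. *Jun* had 18.2 and 8.41. Among pretumorigenic cells, the 115 at or above the median of the same pair had *Ifng* at 9.03 against 6.27 in the other 115, *Ccl5* at 2.96 against 4.93, and *Il22* at 53.6 against 23.4.

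A split by *Ccl5*, also chosen after the values were seen, gave a like division of the tumorigenic cluster. In the 135 cells with *Ccl5*, *Ifng* had a level of 41.4, against 9.93 in the 226 without, *Nkg7* had 17.2 and 3.60, *Gzmb* 3.78 and 0.730, and *Ccl4* 7.67 and 0.0337. *Il22* had 12.4 and 30.1 and *Il17a* 1.99 and 8.86. *S100a4* was close in both, at 11.5 and 13.1, although it was higher in the tumorigenic than in the pretumorigenic cluster as a whole.

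Housekeeping groups were level between the clusters. Of 79 compared ribosomal protein genes 0 differed by 1.5, with summed levels of 2553 in tumorigenic and 2631 in pretumorigenic cells, and the same held for 6 mitochondrial and 29 proteasome genes. Of 73 genes of the nuclear-encoded respiratory chain, 1 was at least 1.5 times higher in tumorigenic cells. Of 11 glycolysis genes only the glucose transporter *Slc2a3* (0.779 against 0.471) was past 1.5, and all 11 had a ratio above 1, with a median log2 ratio of 0.29. Among 15 actin cytoskeleton genes, 14 had a ratio above 1, and *Tpm4* (2.01 against 1.06) and *Actg1* (1.17 against 0.597) were past 1.5. Of 15 interferon-responsive genes 1, *Irf7*, was at least 1.5 times higher in tumorigenic cells. This is close to the share of all compared genes (6.20%). Of 7 compared genes of the TGFβ pathway, *Tgif1*, a corepressor of SMAD proteins, was past 1.5, at 2.18 against 1.24. *Satb1*, a chromatin organizer of T cells, was at 2.32 and 1.17. *Mki67*, a marker of dividing cells, had 34 and 31 UMIs.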
